A study of Mus musculus with 18 samples.

Results

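The Obox genes (oocyte-specific homeobox) are a mouse family of homeobox transcription factor genes clustered on chromosome 7. They were described here through 5 members, Obox1, Obox2, Obox3, Obox5 and Obox6. A member was any row of the deposited array table whose annotation held one of these symbols, and the row with the highest mean was to be taken for a gene with several. The rule found 5 rows among 65956, 1 for each gene. None shared its row with another symbol, and none held the same values as another row. The 5 genes were among 30106 named genes, of which 12902 lay above background, all 5 members included.

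The samples were 18 single blastomeres from 9 parthenogenetic 2-cell embryos (numbers 1 to 5 and 7 to 10), each profiled on its own Affymetrix Mouse Transcriptome Array 1.0. Metaphase II oocytes of hormone-stimulated B6C3F1 mice, an F1 hybrid background, were activated for 6 h with 10 mM SrCl2 and latrunculin in Ca-free alpha-MEM. The embryos then grew in KSOM(aa) medium and were bisected 1 day after activation, at 20 h of culture. Sisters a and b of an embryo were lysed separately under the number of their embryo. All embryos came from females of the same background and had the same treatment and no paternal genome, so the only grouping was the embryo. Oocytes of F1 hybrid females can inherit different alleles, and the genotypes of the embryos were not given. Differences between embryos and differences in genotype therefore cannot be told apart here. The labels did not say which female an oocyte came from.

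Values are log2 signals as the authors normalized them, so a difference of 1 is a doubling and a difference in the total RNA of a blastomere is not visible. Signals of different rows depend on their probes, so each gene was compared only with itself across blastomeres. Background was set at 5.80, the 95th percentile of the mean signals of chemosensory receptor genes. All 8 oocyte and 2-cell embryo markers lay above it, among them the oocyte factor Bmp15 at 17.44. Of 10 measured markers of the cumulus and granulosa cells that surround oocytes, 2 lay above it, Has2 at 6.43 and Amhr2 at 5.90. The others lay below it, among them Amh at 3.72 and Foxl2 at 3.38. Of 3 oviduct markers, 2 lay above it, Wfdc2 at 7.90 and Epcam at 6.88. Array medians ran from 4.86 to 5.26.

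OBOX proteins carry a homeodomain of the paired-like class, related to that of the photoreceptor factor Crx. Obox1, Obox2 and Obox5 are known as maternal genes, whose mRNA is stored in the growing oocyte, whereas Obox3 is known as a gene switched on at the 2-cell stage. Maternal and zygotic OBOX proteins act redundantly in mouse genome activation, the first transcription from the embryo's own genes. Obox6 is known from oocytes and early embryos and for promoting the reprogramming of fibroblasts when forced on.

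The start regions of the family members are shown first, because they show how close the copies are. RefSeq windows of 300 bases (250 before the annotated start and 50 after it, build GRCm38.p6) were at hand for 4 of the 5 members. The stretch below holds the longest run that all 4 have in common, in capitals, and a second capital block marks the letters TATATAA where they occur. Each is written 5′ to 3′ on the gene's strand.
Obox1, chr7:15547099-15547253, plus strand: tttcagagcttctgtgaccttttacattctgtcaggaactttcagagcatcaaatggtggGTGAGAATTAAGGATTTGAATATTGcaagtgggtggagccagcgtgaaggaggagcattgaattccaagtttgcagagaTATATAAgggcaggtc
Obox2, chr7:15388790-15388880, plus strand: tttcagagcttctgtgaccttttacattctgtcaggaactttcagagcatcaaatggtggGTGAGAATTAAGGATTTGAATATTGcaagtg
Obox3, chr7:15639792-15639946, minus strand: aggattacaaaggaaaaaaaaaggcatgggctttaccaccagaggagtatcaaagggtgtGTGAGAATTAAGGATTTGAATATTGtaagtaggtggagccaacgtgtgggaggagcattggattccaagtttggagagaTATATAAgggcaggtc
Obox5, chr7:15750200-15750354, plus strand: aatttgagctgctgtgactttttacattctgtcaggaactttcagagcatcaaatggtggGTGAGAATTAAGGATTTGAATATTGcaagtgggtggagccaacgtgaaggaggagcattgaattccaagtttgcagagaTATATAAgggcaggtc

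The common run was 25 bases long. Across all 27025 promoter windows of the table it was found in 5, those of these 4 genes and of the relative Obox7. It began 98 bases before the annotated start of Obox1, 109 before that of Obox3 and 110 before that of Obox5. In Obox2 it began 1 base before the annotated start, so the annotated starts of Obox1 and Obox2 lie at different places in the same sequence: their windows overlapped without a mismatch over 203 bases. Identity to Obox1 was 95.8% for Obox5 (285 aligned columns) and 93.3% for Obox3 (164 aligned columns). The letters TATATAA, searched on both strands, occurred in 3 of the 4 windows (not in that of Obox2) and in 3.46% of all windows. In Obox1 they began at -19 from the annotated start. In the sequence shared with Obox2 that place lies past the end of the Obox2 window. That window therefore could not show whether Obox2 holds them. GGATTA, the letters bound by Crx-like homeodomains, occurred in 1 of the 4 (Obox3) and in 7.16% of all windows. A match is a description of the letters and not a binding site.

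Between embryos, 3 of the 5 members differed by more than the spread between sisters, namely Obox6, Obox1 and Obox2 (limma moderated F test, adjusted p below 0.05 over 12902 genes). In the same test 5.81% of all genes above background passed, and 19.2% of the 2077 genes with a mean over 11, the range in which all members lay. Obox6 ran over 4.67 log2 units between embryos. The other 4 members ran over 1.10 to 1.39, beside a median of 1.31 over all genes above background. Obox3 and Obox5 did not pass.

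**Figure D1:**
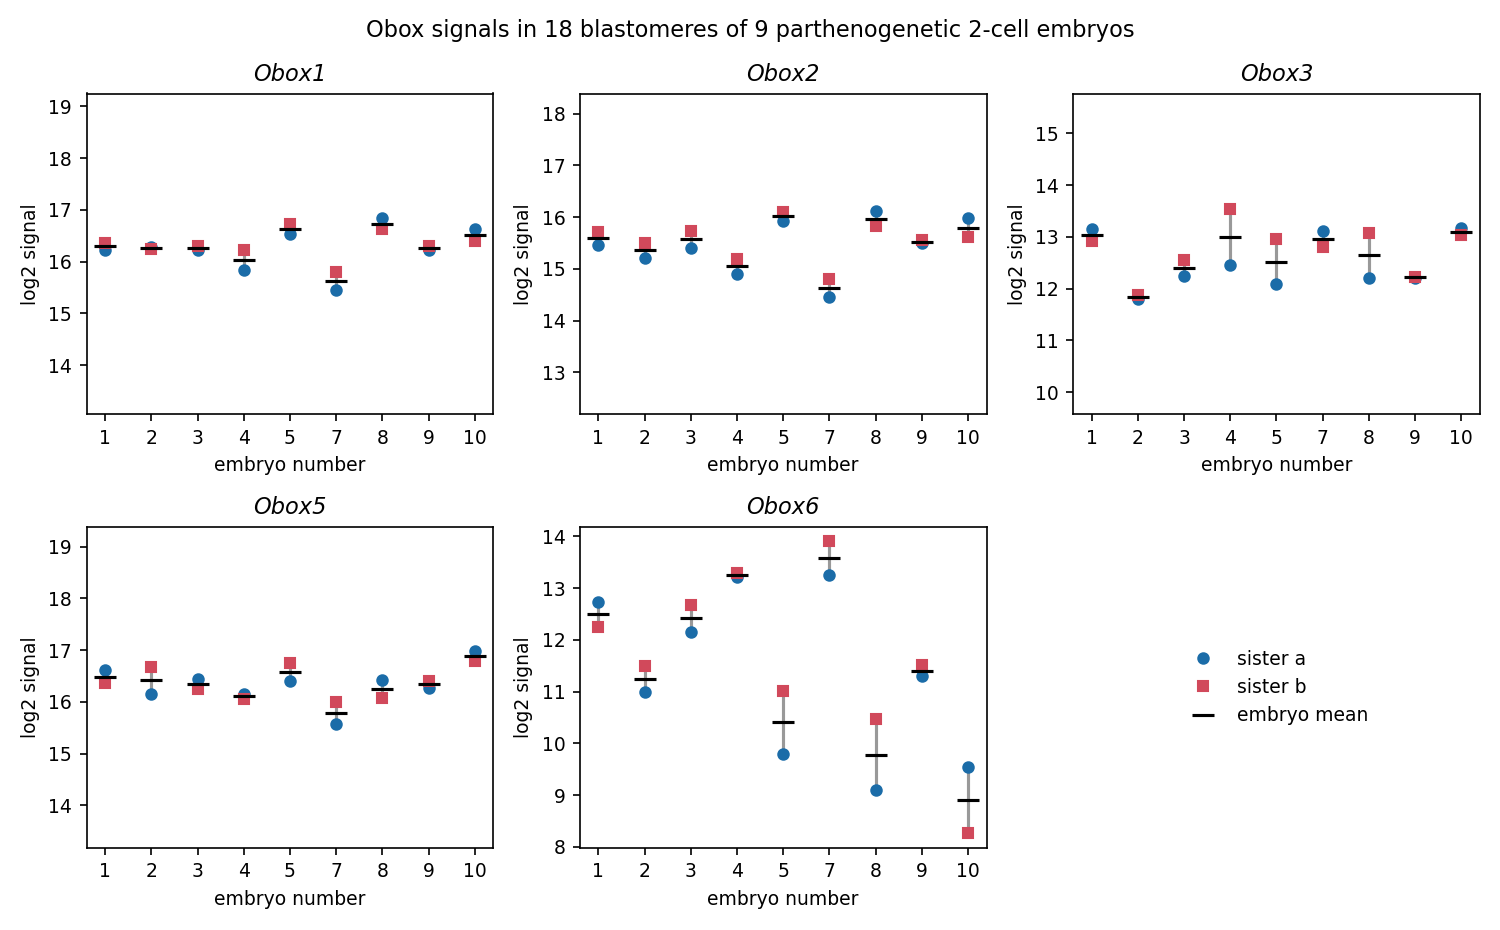
Log2 signal (vertical axis, the same span of 6.2 units in each panel) of the 5 Obox genes by embryo number (horizontal axis). Circles are sisters a, squares sisters b, grey lines join the sisters and black dashes are embryo means (n = 2 blastomeres); Obox6 spreads from 8.26 to 13.90, far wider than the other members.

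Obox6 had the widest spread of the 5 members. Its 18 signals (row TC0700002412.mm.1) averaged 11.50 ± 1.60 (SD, n = 18), with the lowest at 8.26 in blastomere 10b, a median of 11.50 and the highest at 13.90 in blastomere 7b. The top embryos were embryo 7, with sisters at 13.25 and 13.90, and embryo 4, with sisters at 13.22 and 13.30. The lowest embryo was embryo 10, whose sisters read 9.55 and 8.26. Thus both sisters were high or both were low in the same embryo, and no blastomere of embryos 5, 8 and 10 reached any blastomere of embryos 1, 3, 4 and 7. These 2 groups were picked by the same Obox6 values, with embryos 2 and 9 left out, so the gap is a description only.

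The embryos in between filled the range of Obox6. Embryo 8 read 9.09 and 10.46, embryo 5 read 9.79 and 11.02, and embryo 2 had a mean of 11.25 with its sisters 0.49 apart. Embryo 9 read 11.30 and 11.51, embryo 3 read 12.16 and 12.68, and embryo 1 read 12.73 and 12.25. In the order of embryo means (10, 8, 5, 2, 9, 3, 1, 4, 7) only 2 of the 8 neighbouring embryos had sisters whose values did not overlap, so most neighbours in this order did not differ beyond their sisters' spread.

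From the lowest embryo mean of Obox6, 8.91 in embryo 10, to the highest, 13.58 in embryo 7, the difference was 4.67, or 25.5-fold, against a sister SD of 0.59 (F = 16.3, adjusted p = 0.0034, limma). Sisters differed by 0.70 on average, or 36.2% of the 1.94 by which non-sisters differed (exact permutation test over all 34459425 divisions of the 18 blastomeres into 9 pairs, two-sided, p = 0.00058). On the linear scale sisters were 1.63-fold apart and non-sisters 3.84-fold. Sister likeness was relative to this wide range: in 3 of 9 pairs the sisters were over 2-fold apart, up to 2.58-fold in pair 8. These were pairs 5, 8 and 10, the embryos with the lowest means, with gaps of 1.23, 1.37 and 1.29. The gaps of the other pairs ran from 0.08 (pair 4) to 0.65 (pair 7), so the sister SD of 0.59 combines wide and narrow pairs. A dependence of the gap on the level was not tested.

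None of the markers of other cells passed between embryos. The mean level of the cumulus and granulosa cell markers above background, 2 of 10 measured (Has2 at 6.43 and Amhr2 at 5.90), had its lowest value in embryo 5, at -0.47 from its mean over embryos, and its highest in embryo 7, at 0.50. In the embryos lowest for Obox6 it was 0.14 (embryo 10) and 0.03 (embryo 8). The adjusted p was 0.789 for Has2 and 0.679 for Amhr2 (limma). Of the oviduct markers, 2 of 3 lay above background. Epcam had embryo means between 5.05 (embryo 5) and 8.14 (embryo 7; limma, adjusted p = 0.399), whereas Wfdc2 had its highest mean in embryo 5, at 8.24, and its lowest in embryo 10, at 7.67 (limma, adjusted p = 0.850). Amh, Fshr and Foxl2, which are also on the list of cumulus and granulosa cell markers, lay below background. The part of these markers in the Obox6 result was not tested.

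The maternal members Obox1 and Obox2 had narrower ranges, with embryo 7 lowest for both. Obox1 signals (row TC0700004616.mm.1) averaged 16.29 ± 0.34 (SD, n = 18) and ran from 15.46 in blastomere 7a through a median of 16.30 to 16.84 in blastomere 8a. Both sisters of embryo 7 were the lowest of all, at 15.46 and 15.81. Those of embryo 8, at 16.84 and 16.63, and of embryo 5, at 16.54 and 16.73, were high. The embryo means of Obox1 ran from 15.64 (embryo 7) to 16.74 (embryo 8), a difference of 1.10 or 2.14-fold, with a sister SD of 0.16 (F = 7.83, adjusted p = 0.027, limma).

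Obox2 signals (row TC0700004615.mm.1) averaged 15.50 ± 0.45 (SD, n = 18), with the lowest at 14.46 in blastomere 7a, a median of 15.53 and the highest at 16.12 in blastomere 8a. Embryo 7 was again lowest, with 14.46 and 14.80, and embryo 5 had the highest mean, with 15.93 and 16.10. The embryo means differed by up to 1.39, or 2.61-fold, with a sister SD of 0.20 (F = 9.13, adjusted p = 0.018, limma). Both genes therefore had the same lowest embryo and the same pair of embryos, 5 and 8, on top.

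Sisters differed by 0.19 for Obox1, 49.7% of the non-sister difference of 0.38 (exact permutation test, two-sided, p = 0.0086). For Obox2 they differed by 0.26, also 49.7% of the non-sister difference, 0.53 (exact permutation test, two-sided, p = 0.0081). The sister ratio of Obox1, 1.14, lay at percentile 3.91 of all genes above background, whose median was 1.45, and that of Obox2, 1.20, at percentile 10.8. The ratios of the other members were 1.21 for Obox5 (percentile 12.9), 1.35 for Obox3 (35.5) and 1.63 for Obox6 (68.1), so sisters of Obox6 were farther apart than those of the median gene. All these percentiles are among all genes above background. Genes with a mean over 11, the range of the members, had a lower median ratio, 1.39, and the members were not ranked among them. As a share of the non-sister difference, the sister difference had a median of 88.1% over all genes above background and of 73% over those with a mean over 11. No pair was over 2-fold apart for either gene: the widest gaps were 0.38 for Obox1 (pair 4) and 0.37 for Obox2 (pair 10).

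These calls of Obox1 and Obox2 rested on single embryos. Among these was embryo 7, whose arrays were wide by the interquartile range of relative log expression, 0.725 in 7a and 0.79 in 7b. Only 1a, at 0.815, and 5b, at 0.835, were wider. Whether the width of the embryo 7 arrays had a part in these calls was not tested. Without embryo 7 the adjusted p rose to 0.133 for Obox1 and 0.107 for Obox2, and the exact p (exact permutation test) to 0.058 and 0.074. Without blastomere 7a alone the adjusted p was 0.077 for Obox1 and 0.061 for Obox2. Obox1 was also lost without embryo 8 (adjusted p = 0.063) and without blastomere 8a (0.064, limma). The Obox6 call held in each of the 27 fits that left out 1 embryo or 1 blastomere, with adjusted p from 0.0033 to 0.012.

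Obox5, the third maternal member, did not pass the test between embryos. Its signals (row TC0700000212.mm.1) averaged 16.36 ± 0.34 (SD, n = 18), with the lowest at 15.58 in blastomere 7a, a median of 16.39 and the highest at 16.98 in blastomere 10a. Both sisters of embryo 7, with a mean of 15.79 and 0.42 apart, lay below the sisters of every other embryo, and both of embryo 10, at 16.98 and 16.80, lay above them. Embryo means ran over 1.10, or 2.14-fold, with a sister SD of 0.22 (adjusted p = 0.108, limma). Sisters differed by 0.28, 71.2% of the non-sister difference (exact permutation test, two-sided, p = 0.114).

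Obox3, the member known from genome activation, did not pass either, and in 1 pair its sisters were over 2-fold apart. Its signals (row TC0700002407.mm.1) averaged 12.63 ± 0.51 (SD, n = 18), with the lowest at 11.80 in blastomere 2a, a median of 12.69 and the highest at 13.54 in blastomere 4b. Within embryo 4 the sisters read 12.46 and 13.54, a gap of 1.08 or 2.11-fold, and gaps of 0.86 and 0.88 occurred in pairs 5 and 8. By contrast, embryo 9 read 12.21 and 12.23. Embryo means ran from 11.84 (embryo 2) to 13.10 (embryo 10), a difference of 1.27 or 2.40-fold that did not pass the test (sister SD 0.40, adjusted p = 0.299, limma). Sisters differed by 71.3% of the non-sister difference (exact permutation test, two-sided, p = 0.192).

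**Figure D2:**
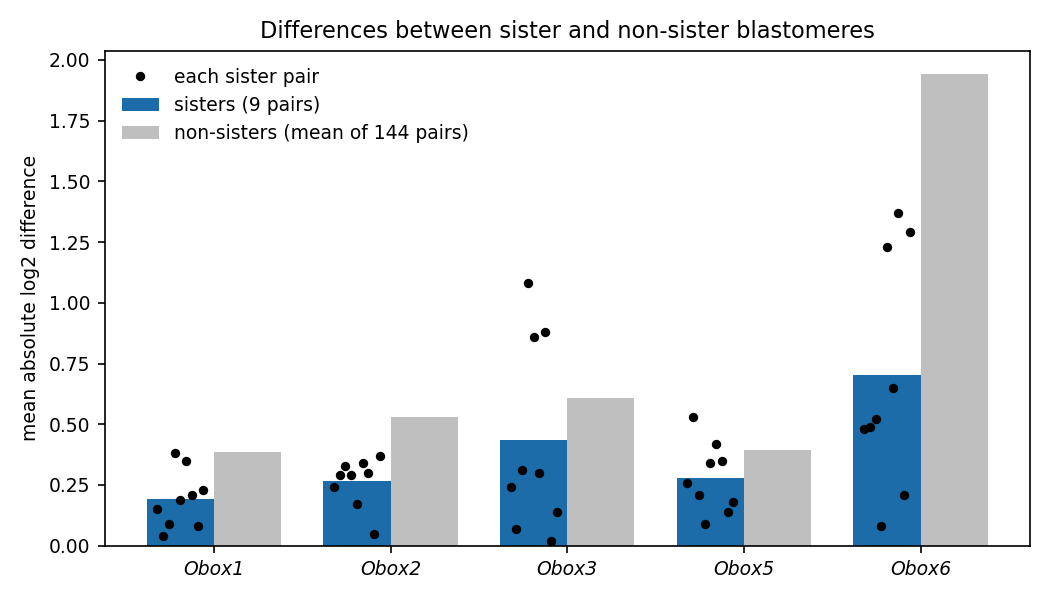
Mean absolute log2 difference (vertical axis) between sisters (blue bars, 9 pairs) and non-sisters (grey bars, 144 pairs) for each Obox gene (horizontal axis), with black points for each sister pair. The sister bar is below the non-sister bar for all 5 genes, with the largest gap for Obox6 (0.70 against 1.94) and a difference that passed the exact test for Obox1, Obox2 and Obox6 only.

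The letters a and b, which may hold an order of handling, did not separate the members. Sister b minus sister a averaged 0.08 for Obox1 (95% interval -0.09 to 0.26), 0.12 for Obox2 (-0.10 to 0.33) and 0.04 for Obox5 (-0.19 to 0.27). For Obox3 it averaged 0.28 (-0.11 to 0.67) and for Obox6 0.31 (-0.26 to 0.87), so a difference between letters of up to 0.87 lies within the interval for Obox6. By limma with the embryo as a block no gene passed (0 of 12902, with 588 at an unadjusted p under 0.05), and the adjusted p of the members was 0.98 or above.

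Members were next set against each other to see which were high in the same embryos. In 8 of 9 pairs the same sister was the higher one for Obox1 and for Obox2, the exception being pair 2, where Obox1 differed by 0.04. The same held for Obox3 and Obox6 in 8 of 9 pairs, the exception being pair 7. The other 8 combinations of members shared the higher sister in 5 to 7 of 9 pairs. These counts were not tested.

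**Figure D3:**
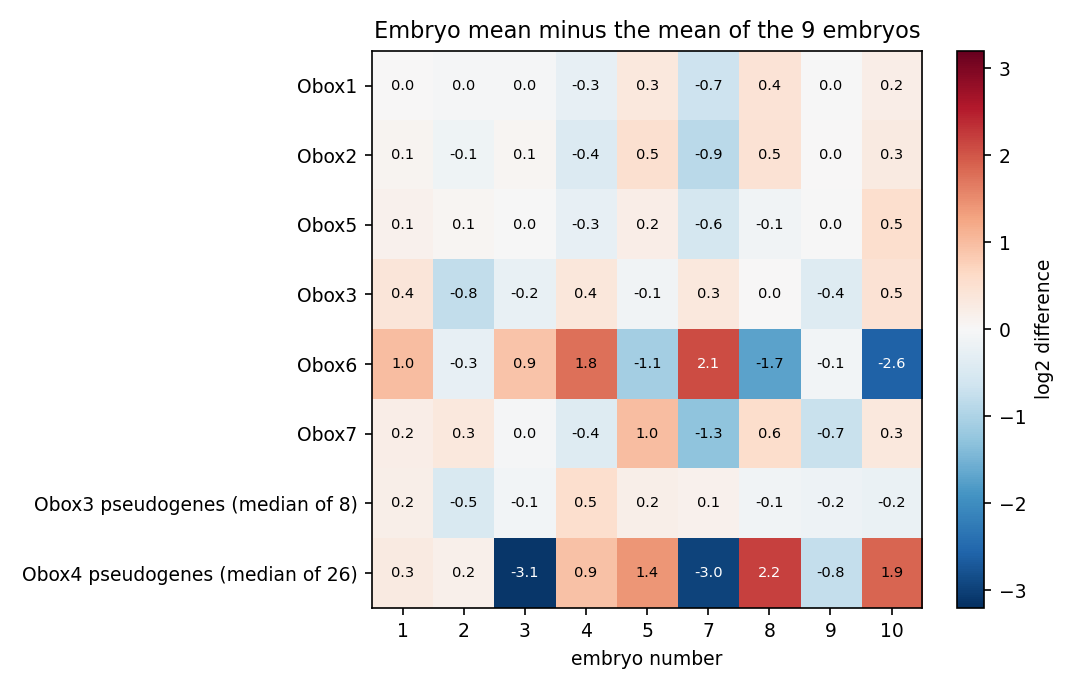
Embryo mean minus the mean of the 9 embryos (colour and printed number, log2 units) for the 5 members, Obox7 and the medians of the Obox3 and Obox4 pseudogene rows (vertical axis) by embryo number (horizontal axis). Embryo 7 is low for Obox1, Obox2 and Obox5 and high for Obox6, and embryos 3 and 7 are low for the Obox4 pseudogenes.

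Over the 9 embryo means, Obox1 and Obox2 rose and fell together (Pearson r = 0.98, exact permutation p = 5.51e-05, Benjamini-Hochberg adjusted over 25 relations 0.0014; Spearman rho = 0.97, exact permutation p = 0.000165, adjusted 0.0041). Without embryos 7 and 8, the 2 farthest from the median, r was 0.97. Whether the probes of one row also bind the transcripts of the other was not tested, and probe sequences were not used here.

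Obox1 and Obox6 ran in opposite directions (r = -0.85, exact permutation p = 0.0029, adjusted 0.037). The rank correlation was -0.80 and missed the threshold after adjustment (exact permutation p = 0.014, adjusted 0.173). Without embryos 7 and 8, r was -0.82. Leaving out 1 embryo at a time kept r between -0.91 and -0.82, but in 6 of 9 such sets the adjusted p no longer passed. No other of the 25 relations passed on Pearson's r. Obox2 with Obox6 had r = -0.81 (exact permutation p = 0.0071, adjusted 0.054) and rho = -0.77 (exact permutation p = 0.021, adjusted 0.178), and without embryos 4 and 7 r was -0.63. Obox5 with Obox6 had r = -0.76 (exact permutation p = 0.016, adjusted 0.079) and rho = -0.63 (exact permutation p = 0.076, adjusted 0.190), and without embryos 7 and 10 r was -0.34. For Obox3 over all 9 embryos r lay between -0.37 (level of oocyte genes) and 0.33 (level of 2-cell genes), and no relation passed. Without the 2 farthest embryos it was 0.51 with Obox2, 0.55 with Obox6 and -0.42 with Obox5.

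**Figure D4:**
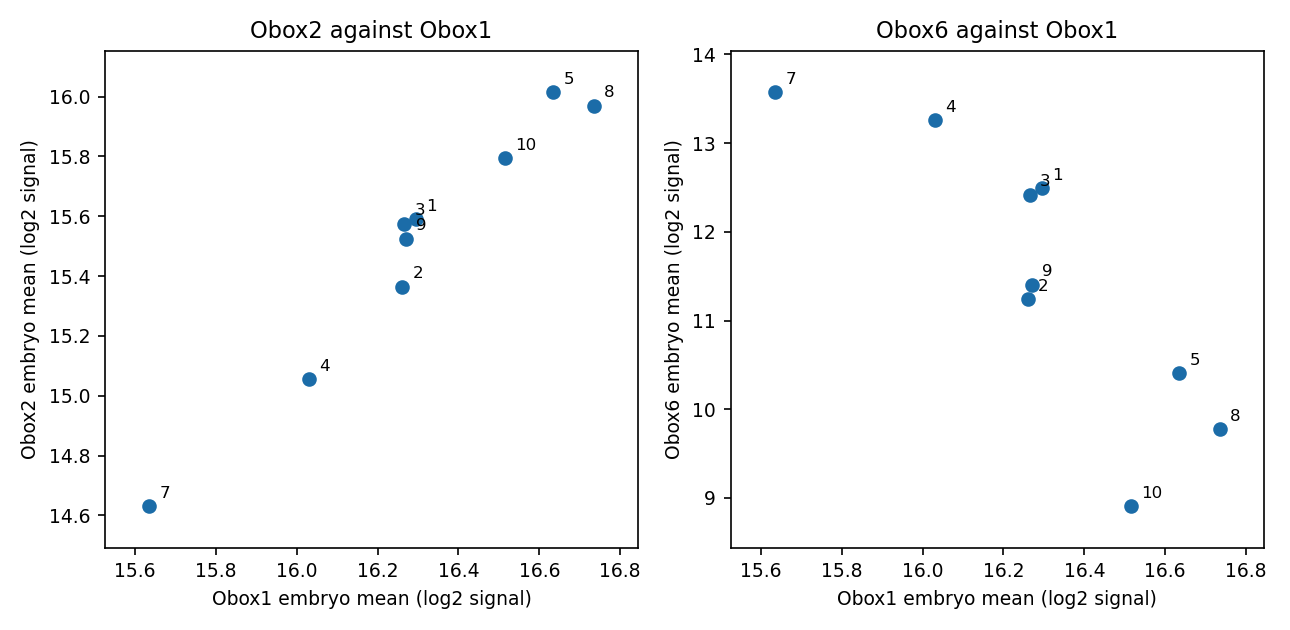
Embryo means (log2 signal) of Obox2 (left, vertical axis) and Obox6 (right, vertical axis) against Obox1 (horizontal axes), each point 1 embryo with its number. Obox2 rises with Obox1 (r = 0.98) and Obox6 falls as Obox1 rises (r = -0.85); embryo 7 is the point at the far left of both.

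The level of oocyte genes, the mean deviation of 30 genes above background such as Nlrp4f, was -0.59 in embryo 7 and 0.62 in embryo 5, and had r = 0.79 with Obox1 (exact permutation p = 0.0086, adjusted 0.054) and rho = 0.58 (exact permutation p = 0.108, adjusted 0.245). Without embryos 7 and 8, r was 0.63. With Obox6 the relation had r = -0.69 (exact permutation p = 0.045, adjusted 0.102) and rho = -0.72 (exact permutation p = 0.037, adjusted 0.184), and without embryos 7 and 10 r was -0.72. Neither passed after adjustment. The level of 29 genes activated at the 2-cell stage had r = 0.28 with Obox1 (exact permutation p = 0.464, adjusted 0.682; rho = 0.38, exact permutation p = 0.312, adjusted 0.488). With Obox6 it had r = -0.19 (exact permutation p = 0.621, adjusted 0.785) and rho = -0.20 (exact permutation p = 0.613, adjusted 0.767). The values without the 2 farthest embryos were -0.24 and -0.17.

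Genes with the pattern most like each member were listed by Pearson's r over the 18 blastomeres, as a description, since sisters share an embryo and each array its processing. For Obox6 they were Gm10269 (0.95), Mir684-1 (0.94), Mir684-2 (0.94), Gm4342 (0.93) and Ppp1ccb (0.92). The most opposite pattern to Obox6 was that of Pla2g4c, a phospholipase gene, at -0.93. For Obox1 the list began with Pramel26 (0.89) and Rfpl4 (0.86), and continued with LOC620551, E330021D16Rik and Tmem175 (0.86 each). Obox2 shared Rfpl4 (0.87), an oocyte ubiquitin ligase gene, and Tmem175 (0.86) with Obox1, and added Trappc2 (0.86), the imprinted gene Mest (0.85) and Gm13080 (0.84). Sbno1 was the most opposite gene to both, at -0.91 and -0.90.

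The lists of Obox5 and Obox3 had lower correlations. For Obox5 they were Plaa (0.80), Mbl2 (0.79), Eif4a-ps4 (0.78), Mtcp1 (0.77) and Psg20 (0.76). For Obox3 they were Smarce1-ps1 (0.82), Gm3687 (0.79), Ccdc127 (0.77), Npdc1 (0.76) and Rplp1-ps1 (0.76).

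The array held 36 further rows of the family, which the annotation listed under older names and which were matched through RefSeq synonyms: Obox7, 8 Obox3 pseudogenes and 27 Obox4 pseudogenes. The most variable were the Obox4 pseudogenes, copies related to Obox4, a family member known from genome activation that was not analysed here. Of their 26 rows above background all 26 passed the test between embryos. Beside this stand 5.81% of all genes above background and 19.2% of those with a mean over 11. The means of the 26 rows ran from 6.35 to 16.04. The 26 rows held 22 different sets of values, since Obox4-ps18 to Obox4-ps22 had identical values, so close copies were not measured independently. They made up 7 of the 10 genes and 19 of the 25 genes with the smallest p of all.

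Per row, the embryo means of the Obox4 pseudogenes ran over 3.37 to 6.48 log2 units, or 10.3-fold to 89.3-fold, with a median of 5.24 and sister SDs of 0.25 to 0.60. The median over rows was 15.81 in embryo 8, 15.48 in embryo 10, 15.02 in embryo 5 and 14.55 in embryo 4. It was 13.89 in embryo 1, 13.78 in embryo 2 and 12.85 in embryo 9, and dropped to 10.64 in embryo 7 and 10.49 in embryo 3. Of the 26 rows, 25 were highest in embryo 8, 18 were lowest in embryo 3 and 8 in embryo 7. The adjusted p of the rows lay between 1.12e-05 and 0.012 (limma), the smallest for Obox4-ps8 (12.23 in embryo 7 and 16.77 in embryo 8) and Obox4-ps11 (13.47 and 17.76 in the same embryos).

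**Figure D5:**
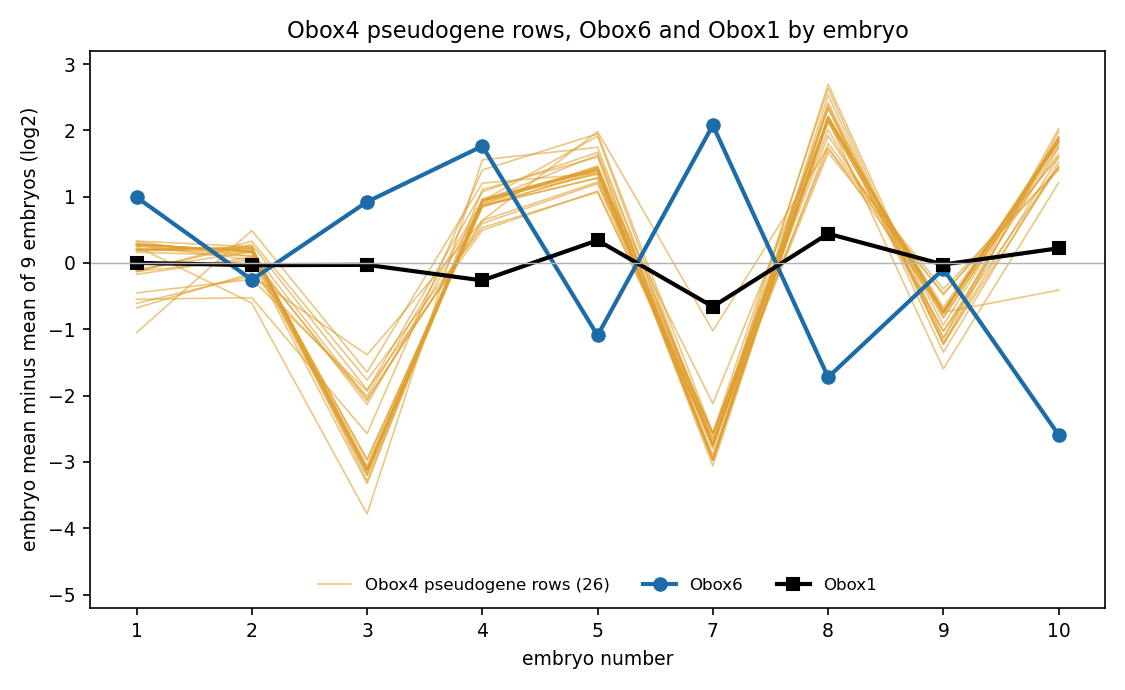
Embryo mean minus the mean of the 9 embryos (vertical axis, log2 units) for the 26 Obox4 pseudogene rows above background (thin lines), Obox6 (circles) and Obox1 (squares) by embryo number (horizontal axis). The thin lines fall in embryos 3 and 7 and peak in embryo 8 in 25 of 26 rows, whereas Obox6 peaks in embryo 7.

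No relation of a member with the Obox4 pseudogenes passed after adjustment. The median of the pseudogene rows had r = -0.70 with Obox6 over the 9 embryos (exact permutation p = 0.039, adjusted 0.098) and rho = -0.67 (exact permutation p = 0.059, adjusted 0.185). With Obox1 it had r = 0.72 (exact permutation p = 0.029, adjusted 0.089) and rho = 0.72 (exact permutation p = 0.037, adjusted 0.184). Without the 2 farthest embryos r was -0.50 and 0.37. In embryo 3 the pseudogenes were at their lowest while Obox1, at 16.27, was close to its median. The genes most like the pseudogene median over 18 blastomeres were Zscan4e (0.93), Zscan4b (0.92), Gm11487 (0.89), Zscan4a (0.88) and Zscan4c (0.86), and 4 of these 5 belong to Zscan4, a multicopy gene family of the 2-cell stage. Zscan4e had its lowest embryo mean in embryo 3, at 12.45, and its highest in embryo 8, at 16.26 (limma, adjusted p = 0.0072).

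None of the 8 Obox3 pseudogenes passed, with adjusted p from 0.055 (Obox3-ps8, on chromosome 17) to 0.604 (limma) and embryo ranges of 0.74 to 2.15. Obox7, listed as Gm4745, averaged 13.62, with embryo means between 12.34 (embryo 7) and 14.61 (embryo 5), and did not pass (adjusted p = 0.140, limma).

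The shares of other genes of the pathway that passed stand beside 5.81% of all genes above background and 19.2% of those with a mean over 11. Of 16 other homeobox genes of the oocyte and early embryo above background, 1 passed (6.25%), Hesx1, a repressor needed for forebrain and pituitary development, with 5.34 in embryo 9 and 8.79 in embryo 1 as its extremes (limma, adjusted p = 0.00095). Of 21 regulators of genome activation above background, 2 passed (9.52%). These were Kdm5b, an H3K4 demethylase gene, at 10.08 in embryo 2 and 12.51 in embryo 7 (adjusted p = 0.018, limma), and Dppa4, at 7.77 in embryo 5 and 11.14 in embryo 4 (adjusted p = 0.028, limma). Of 29 genes activated at the 2-cell stage, 12 passed (41.4%), led by Zscan4c, Zscan4f, Zscan4e and Zscan4b. Zscan4a and Zscan4d passed too, as did Usp17la, Usp17lb and Usp17le, while Usp17lc and Usp17ld did not. Genes of the same family may not have been measured independently, and the share without them was not calculated. Of 30 oocyte genes, 10 passed (33.3%), led by Nlrp4f, Oosp2, Omt2a and E330034G19Rik.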

How the data were processed

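The authors deposited log2 signals of 18 arrays, which they had background-corrected, normalized and summarized per probe set with the SST-RMA method (signal space transformation robust multiarray averaging), using Affymetrix Expression Console together with Transcriptome Analysis Console. For the probe sets, a genome build was not given in the sources used here. Of 65956 rows, 30646 had 1 gene symbol, 2168 several and 33142 none. Symbols were updated through gene identifiers and synonyms of the RefSeq table (GRCm38.p6), which changed 330. The row with the highest mean was kept for 427 genes with several rows. The background threshold rests on 1440 chemosensory receptor genes.

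Embryos were compared by the moderated F test of limma 3.58.1 (R 4.3.3), with embryo as the factor and an intensity trend, adjusted over 12902 genes by Benjamini-Hochberg, which sets the spread between embryos against that between sisters. Single members were tested by an exact permutation of the pairs, whose smallest p is 5.8e-08, and relations by exact permutation of the embryos. The 25 relations comprised 10 between members and 15 with the levels of oocyte genes, 2-cell genes and Obox4 pseudogenes, the latter 15 added after seeing the data. The fits were tested on simulated data. Python 3.11.15 was used with numba 0.67.0, pandas 2.3.3, scipy 1.17.1, matplotlib 3.10.9 and numpy 2.4.6.

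Named were the members, other Obox rows, the 5 genes most like each member, up to 4 called genes of each list, and cell markers. Members and lists were chosen with earlier results of these data known. Alternatives were no background threshold, no intensity trend, plain analysis of variance, median centring, quantile normalization, the letter as a block and leaving out embryos or blastomeres. Sisters came from 1 embryo, so embryos are the independent units, and the number of arrays limits the precision.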

Additional observations from a re-analysis of the deposited data

How the results depend on the processing

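Of the 5 members, 3 passed between embryos under the chosen settings. Without the intensity trend 1 passed, Obox6, while Obox1 had an adjusted p of 0.140 and Obox2 of 0.062. Leaving out 1 embryo or 1 blastomere gave counts of 1 to 3. Obox1 also missed the threshold under plain analysis of variance (0.056) and without the arrays with the widest relative log expression, 1a and 5b (0.056). The cause was not tested. With the letter as a replicate block the adjusted p was 0.035 for Obox1, 0.023 for Obox2 and 0.0052 for Obox6, and no call changed. The exact test between sisters and non-sisters was under 0.05 for 3 members, and for 1 to 4 when 1 embryo was left out. For Obox5 it was 0.021 after quantile normalization and 0.040 without embryo 2. Of the 25 relations, 2 passed, 4 after quantile normalization and 1 to 6 when 1 embryo was left out. All 26 Obox4 pseudogene rows above background passed under each of these alternatives except plain analysis of variance (25 of 26); without a threshold 26 of 27 rows passed. The alternatives with other rows of a gene or rows with 1 symbol only gave no other value, since each member had 1 row with 1 symbol. No result changed direction where it had passed.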
